A study of Mus musculus with 10 samples.

Results

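The genes described here were 35 mouse genes of the integrated stress response and the unfolded protein response, chosen by name from the roles they play in these pathways. All 35 were found among the 45195 Ensembl gene IDs of the expression matrix. All 35 also passed the filter on low values, a minimum of 1 in 2 or more libraries, which left 15712 genes for testing. By role they comprised 3 stress sensors, 5 transcription factors, 5 feedback and growth regulators, 8 genes of amino acid and one-carbon metabolism, 12 folding factors of the endoplasmic reticulum (ER) and 2 genes of ER-associated degradation (ERAD).

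The RNA came from neurites, that is, axons and dendrites grown by cultured cortical neurons through a porous membrane. The neurons came from C57BL/6 mouse embryos at E16.5 (days of embryonic development), either wild-type or Cpeb1 flox/flox on the same background. All cultures of both genotypes, controls included, received AAV2 carrying Cre under the ubiquitous CAG promoter at plating, so the virus was shared and the floxed allele differed. Cpeb1 encodes a protein that binds elements in the untranslated regions of mRNAs and regulates their translation. The groups were 2 libraries of injured knockout neurites, 2 of naive knockout neurites, 3 of injured wild-type neurites and 3 of naive wild-type neurites. On day 7 injured neurites had been scraped off below the membrane, and they were lysed 24 hours later, on day 8, as were the naive ones. The labels do not say whether replicates were separate cultures or litters, so the p-values reflect the spread of these samples alone, which may be technical.

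In the integrated stress response, several kinases phosphorylate the translation factor eIF2α, which lowers general protein synthesis while favouring translation of the transcription factor ATF4. ATF4 then drives genes for amino acid import and synthesis, one-carbon metabolism and, in its late phase, feedback on eIF2α itself. The unfolded protein response is the answer of the ER to misfolded protein, read by the sensors PERK, IRE1 and ATF6 and carried out by chaperones, folding enzymes and ERAD. In axons both pathways are known to respond to injury, and some of their mRNAs, Atf4 among them, have been found to be translated locally.

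The DNA elements of these pathways are shown first, since they are the letters through which ATF4 and the ER stress factors are known to act. Promoter windows from 250 bases before to 50 after the annotated start (RefSeq, GRCm38.p6) were available for 31 of the 35 genes, and none was used for Hyou1, Slc7a5, Atf6 and Manf. Both strands were searched for the ATF4 element TGATGNAA, for the ER stress response element (ERSE, CCAAT and CCACG with 9 bases between), for ERSE-II (ATTGG and CCACG with 1 base between) and for the core of the unfolded protein response element, TGACGTG. Among the matches in these 31 windows no element overlapped another. The examples below are read 5′ to 3′ on the strand of the gene. Capitals mark the fixed letters of the element, or of its reverse complement, with 8 flanking bases on each side.
Asns ATF4 element (chr6:7693217-7693240, minus strand): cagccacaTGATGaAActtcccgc
Chac1 ATF4 element (chr2:119351041-119351064, plus strand): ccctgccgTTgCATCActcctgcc
Trib3 ATF4 element (chr2:152344031-152344054, minus strand): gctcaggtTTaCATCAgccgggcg
Herpud1 ATF4 element (chr8:94386309-94386332, plus strand): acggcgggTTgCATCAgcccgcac
Herpud1 ERSE-II (chr8:94386369-94386395, plus strand): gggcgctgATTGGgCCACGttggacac
Hspa5 ERSE (chr2:34772017-34772051, plus strand): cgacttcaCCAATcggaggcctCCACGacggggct
Hspa5 UPRE core (chr2:34771925-34771947, plus strand): cgtagcaaTGACGTGagttgcgg
Canx ERSE (chr11:50325792-50325826, minus strand): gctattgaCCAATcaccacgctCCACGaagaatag

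The ATF4 element was found in 6 of the 31 windows (Nupr1, Trib3, Chac1, Asns, Slc7a11 and Herpud1), against 4.51% of 27025 mouse genes with a window of the same length. ERSE was found in 7 of the 31 (Hspa5, Hsp90b1, Dnajc3, Pdia6, Calr, Canx and Creld2), against 0.137% of all windows. ERSE-II was found in Herpud1 alone among them (0.0444% of all windows), and the UPRE core in Hspa5 alone (2.22%). The genes were chosen by name for their roles in these pathways, so a share above that of all windows follows from the choice and is not a test. A match is a description of these letters and not evidence that a factor binds there.

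**Figure D1:**
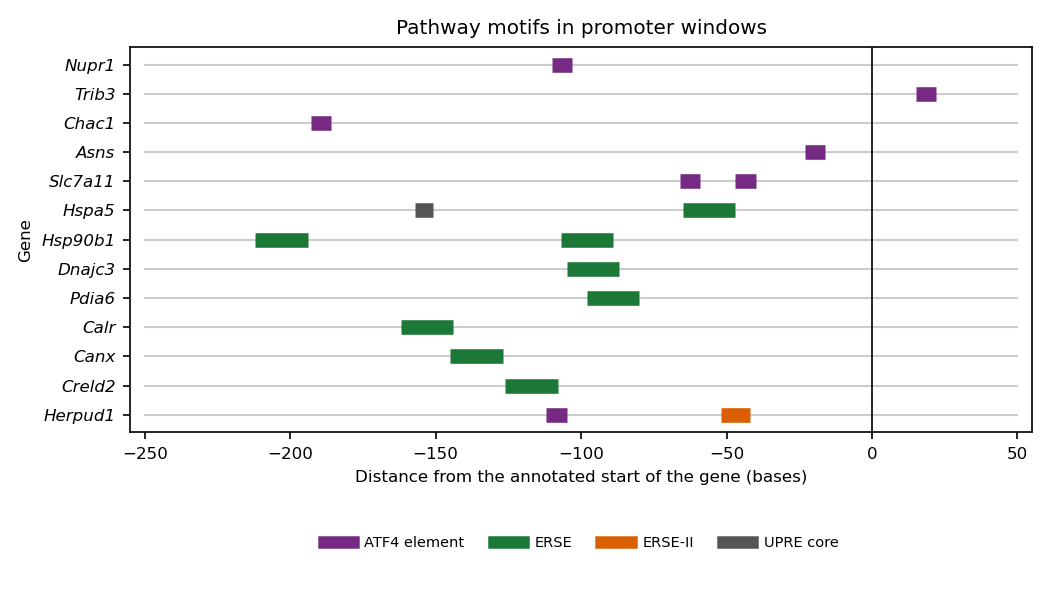
Position of each match in the 13 promoter windows that held one, in bases from the annotated start of the gene (vertical line). ATF4 elements (purple) lay in genes of the ATF4 arm and in Herpud1, and ERSE (green) in genes of ER folding.

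In units of 1e6 fragments, the depth estimated from the steps in the deposited values was 21 to 27.7 in 9 libraries and 10.4 in wild-type injured library 3. These estimates hold only up to a whole-number factor, and the values of that library before its constant summed to 1901823, against 805982 to 884086 in the others, so its depth may be understated. That library had the fewest genes at a value of 1 or more (12231) and the lowest mean correlation with the others (0.839). Cpeb1, the targeted gene, had values of 1.14 and 3.15 in the knockout injured libraries, 5.97 and 0.356 in the knockout naive libraries, 1.65, 13.8 and 22.6 in the wild-type injured libraries and 7.16, 5.96 and 5.86 in the wild-type naive libraries. The library labelled knockout naive 1 thus lay within the range of the wild-type naive libraries, and wild-type injured library 1 lay between the knockout injured ones. Which exons are deleted is not given in the sources used here, so a value above 0 does not by itself go against a label. All 8 neuronal markers checked, such as Tubb3 and Gap43, were above 0 in every library, with summed values of 3376 to 4374 in knockout injured, 4428 to 4850 in knockout naive, 2624 to 3408 in wild-type injured and 3800 to 4259 in wild-type naive libraries.

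Levels are given here as the deposited values, which are scaled by transcript length and by library size (FPKM, with a further constant per library), so that genes can be compared. Atf4 was the most abundant of the 35, with a median of 258 over the 10 libraries and a range of 194 to 280, at the 97.4th percentile of tested genes. Asns (231), Slc3a2 (173), Hspa5 (146) and Phgdh (140) followed by median value, and their ranges overlapped those of their neighbours in this order. The sensors Ern1, which encodes IRE1, and Atf6 had the lowest medians, at 0.609 and 1.45. The sensor Eif2ak3, which encodes PERK, had a median of 8.20, at the 53.1st percentile of tested genes. In all, 9 genes had a median of at least 100, 16 lay from 10 to 100 and 10 were under 10. The median of the 35 medians was 39.0, against 7.03 for all tested genes, and 26 of the 35 lay above that of all tested genes. A total of 30 genes were listed above 0 in every library, and Sdf2l1, Nupr1, Trib3, Atf6 and Ern1 were listed at 0 in at least 1.

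**Figure D2:**
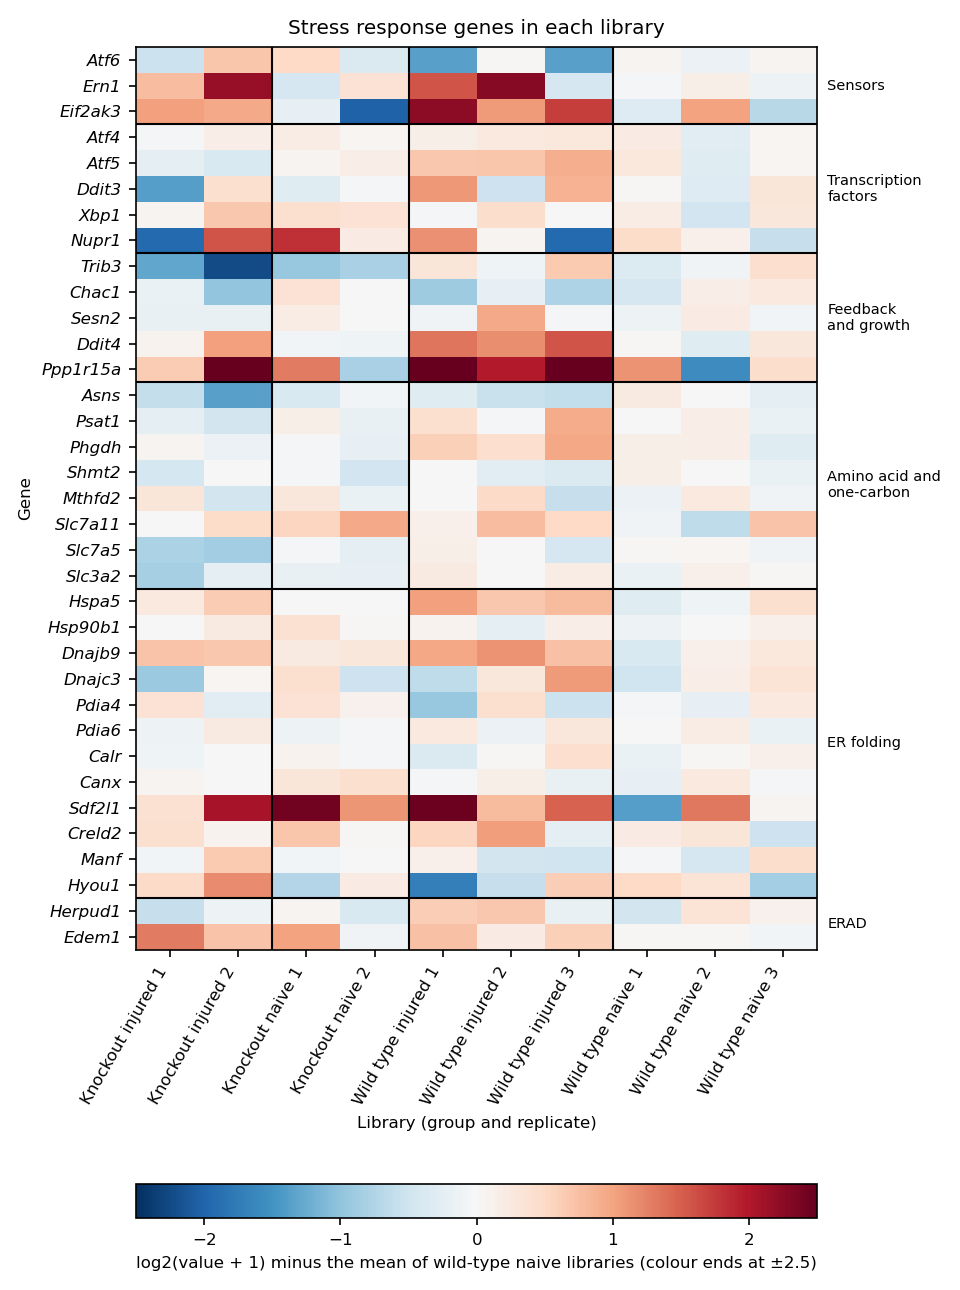
Difference of log2(value + 1) from the mean of the wild-type naive libraries, for each of the 35 genes (rows, by role) in each of the 10 libraries (columns, by group). Ddit4, Ppp1r15a, Hspa5 and Dnajb9 were above the wild-type naive mean in all 3 wild-type injured libraries, and Trib3, Slc7a5 and Slc3a2 below it in both knockout injured libraries.

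The comparison of injured with naive neurites asked how neurites that regrow after being cut differ from those left alone, in each genotype. In wild-type neurites the growth brake Ddit4, the eIF2α phosphatase subunit Ppp1r15a and the ER chaperones Hspa5 and Dnajb9 had the clearest differences, all toward higher values after injury, and Asns lay the other way. None of the 35 passed in limma at an adjusted p of 0.05, where 0.948% of all tested genes were called. At an unadjusted p under 0.05, 7 genes were higher (7.66% of all tested genes) and 1 lower (6.24%). The log2 fold change was above 0 for 24 of the 35 (68.6%, against 50.6% of all tested genes), with a median of 0.24 against 0.0092 for all genes. Without wild-type naive library 1 the median was 0.14. Without wild-type injured library 3, 9 genes were higher and 0 lower at an unadjusted p under 0.05 (6.25% and 5.87% of all tested genes). Without wild-type injured library 1, 6 were higher and 1 lower (8% and 6.79%). All 3 injured libraries lay above all 3 naive ones for 8 genes (9.78% of all tested genes) and below for 1 (8.02%).

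In knockout neurites injury was accompanied by higher values of the sensors Eif2ak3 and Ern1 and by lower values of Asns, Slc7a5 and Chac1, none past the adjusted threshold. Limma called 0 of the 35, where 0.0573% of all tested genes were called. At an unadjusted p under 0.05, 1 gene was higher (1.68% of all tested genes) and 2 were lower (4.05%). The log2 fold change was above 0 for 13 of 35 (37.1%, against 42.0% of all tested genes), and the median was −0.11 against −0.087 for all genes. This median rested on single libraries: it was 0.04 without knockout injured library 1, 0.07 without knockout naive library 1 and −0.26 without knockout naive library 2. Both injured libraries lay above both naive ones for 6 genes (13.5% of all tested genes) and below for 10 (22.1%).

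**Figure D3:**
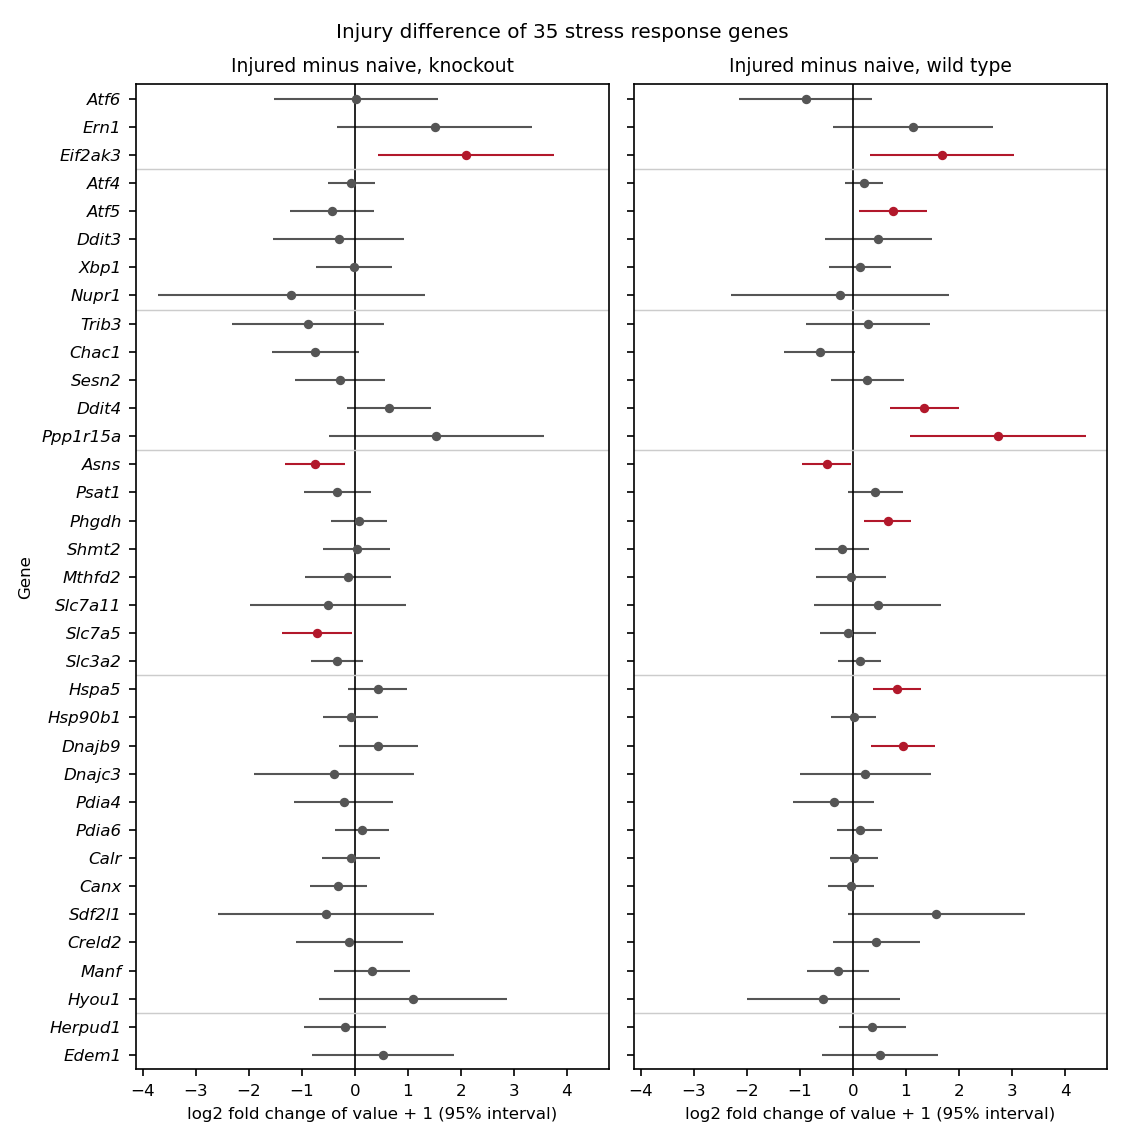
Log2 fold change of value + 1 between injured and naive libraries for the 35 genes, with 95% intervals from limma, in knockout (left) and wild-type (right) neurites. Red marks an unadjusted p under 0.05, which holds for 3 genes in the knockout and 8 in wild type, and none passed after adjustment.

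The comparison of knockout with wild-type neurites asked what loss of Cpeb1 changes. In naive neurites the 35 genes were spread around 0, with a median log2 fold change of 0.03 against 0.06 for all tested genes. Limma called 0 of the 35 (0.146% of all tested genes), and 0 had an unadjusted p under 0.05, against 2.7% higher and 1.06% lower among all tested genes. The log2 fold change was above 0 for 18 of 35 (51.4%, against 55.4%). Both knockout libraries lay above all wild-type ones for 2 genes (14.1% of all tested genes), Xbp1 and Canx, and below for 2 (8.51%), Trib3 and Slc3a2. The sign of the median depended on single libraries, since it was −0.03 without wild-type naive library 1, −0.03 without knockout naive library 1, 0.15 without knockout naive library 2 and 0.10 without wild-type naive library 3.

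In injured neurites several genes of the ATF4 arm, and the ERAD gene Herpud1, had lower values in the knockout. Others of that arm were nearly level, such as Chac1 (0.06), Shmt2 (−0.02) and Mthfd2 (−0.04). Trib3, Atf5, Slc3a2, Phgdh, Psat1, Slc7a5, Ddit4 and Herpud1 had an unadjusted p under 0.05, all 8 lower in the knockout (5.95% of all tested genes) and 0 higher (4.5%). Limma called 0 of the 35 after adjustment, where 0.261% of all tested genes were called. The log2 fold change was above 0 for 11 of 35 (31.4%, against 45.7% of all tested genes), and the median was −0.23 against −0.049. Without knockout injured library 1 the median was −0.07, without knockout injured library 2 it was −0.36, and without wild-type injured library 3 it was −0.40. Without wild-type injured library 1, 5 genes were lower and 1 higher at an unadjusted p under 0.05. The gene models CT010467.1 and AY036118, of ribosomal RNA sequence, held 12.1% and 15.1% of the summed values in knockout injured libraries, against 19.9%, 23.3% and 28.2% in wild-type injured ones and 11.1% to 16.9% in the naive libraries of both genotypes, and the part of this share in the differences was not tested. Both knockout libraries lay below all 3 wild-type ones for 11 genes (12.2% of all tested genes) and above for 0 (9.72%).

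**Figure D4:**
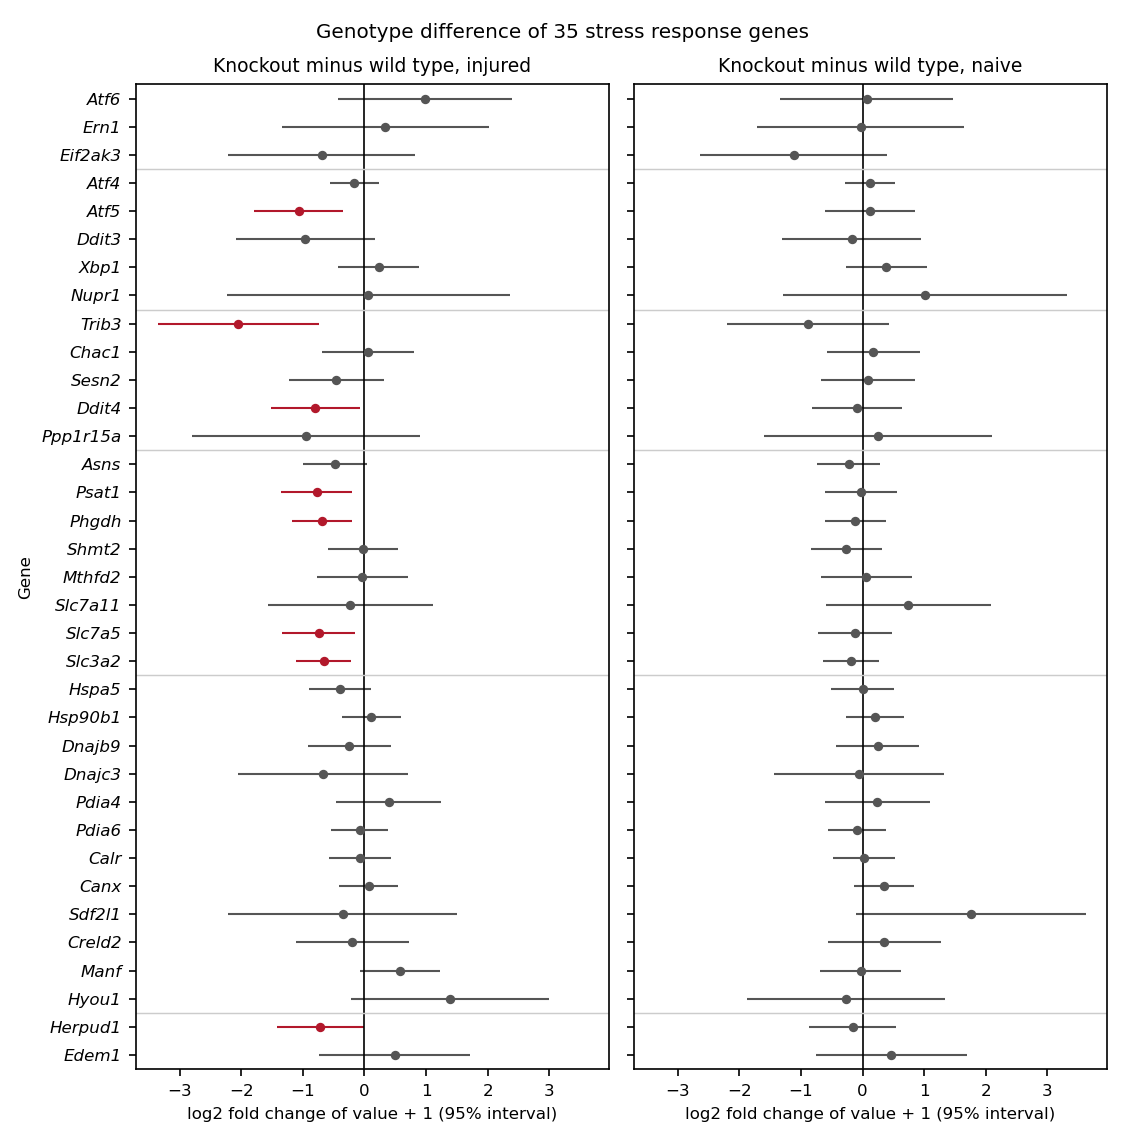
Log2 fold change of value + 1 between knockout and wild-type libraries for the 35 genes, with 95% intervals from limma, in injured (left) and naive (right) neurites. Red marks an unadjusted p under 0.05, which holds for 8 genes in injured and 0 in naive neurites, and none passed after adjustment.

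The interaction, the injury difference in knockout minus that in wild-type neurites, was tested as a term of its own. Limma called 0 of the 35, and it called 0 of all tested genes (0%), of which 979 had an unadjusted p under 0.05. Of the 35, 1 had an unadjusted p under 0.05 and a negative term (4.3% of all tested genes) and 0 a positive one (1.93%). The term was above 0 for 9 of 35 (25.7%, against 43.2% of all tested genes), with a median of −0.40 against −0.127 for all genes. Under quantile normalization the median of all genes was 0.017 and that of the 35 was −0.22, and under median-ratio scaling they were 0.0037 and −0.23. Without knockout injured library 1 the median of the 35 was −0.20 and without knockout naive library 1 it was −0.21. The 5 comparisons share libraries: the wild-type injured libraries enter both the wild-type injury comparison and the injured genotype comparison, so these are not separate observations of them.

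Of the 3 sensors, Eif2ak3 had the highest median. It had values of 8.42 and 8.00 in knockout injured, 3.02 and 0.148 in knockout naive, 20.9, 8.74 and 14.5 in wild-type injured and 2.71, 8.41 and 1.89 in wild-type naive libraries. Injured values lay above all naive values of the same genotype, narrowly in wild type, where an injured value of 8.74 met a naive one of 8.41. The log2 fold change with injury was 2.10 ± 0.77 (SE) in the knockout (limma, adjusted p = 0.754) and 1.68 ± 0.63 in wild type (limma, adjusted p = 0.262), and knockout against wild-type naive neurites differed by −1.12 ± 0.70 (limma, adjusted p = 1). The naive difference was −2.02 without knockout naive library 1, −0.21 without knockout naive library 2 and −0.61 without wild-type naive library 2, and the injury difference in the knockout was 1.196 without knockout naive library 2. About 8.05% of the Eif2ak3 exon bases are shared with a tested gene on the opposite strand, Gm43292, and these libraries do not record strand.

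Ern1 had values of 1.31 and 5.06 in knockout injured, 0 and 0.731 in knockout naive, 3.01, 5.47 and 0 in wild-type injured and 0.322, 0.487 and 0.236 in wild-type naive libraries. The knockout groups did not overlap, and the wild-type groups did because wild-type injured library 3 was listed at 0. The injury difference in the knockout was 1.51 ± 0.85 (limma, adjusted p = 0.933), and 0.81 without knockout injured library 2. Atf6, whose protein is cleaved in the Golgi to become a transcription factor, had values of 0.766 and 3.14 in knockout injured, 2.59 and 0.978 in knockout naive, 0, 1.58 and 0 in wild-type injured and 1.67, 1.31 and 1.68 in wild-type naive libraries. Its log2 fold change was −0.89 ± 0.58 with injury in wild type (limma, adjusted p = 0.533) and 0.98 ± 0.65 between knockout and wild-type injured neurites (limma, adjusted p = 0.629), and the interaction was 0.91 ± 0.92 (limma, adjusted p = 0.898). The groups of Atf6 overlapped in each of these pairs. Its injured genotype difference was 1.59 without knockout injured library 1 and 0.36 without knockout injured library 2, its wild-type injury difference was −1.35 without wild-type injured library 2, and its interaction was 1.53 and 0.30 without knockout injured libraries 1 and 2 and 0.49 without knockout naive library 2.

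Among the transcription factors, Atf4 (ENSMUSG00000042406, mm10 chr15:80255184-80257541) was nearly level. Its values were 223 and 260 in knockout injured, 266 and 239 in knockout naive, 256, 275 and 280 in wild-type injured and 268, 194 and 241 in wild-type naive libraries. The groups overlapped in every pair. The injury difference was −0.07 in the knockout, with a 95% interval from −0.51 to 0.37, and 0.22 in wild type, from −0.14 to 0.58. These are mRNA values, and the amount of ATF4 protein, which is set largely by translation, was not measured.

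Atf5 (ENSMUSG00000038539, chr7:44812256-44816658), a relative of Atf4 whose translation also responds to eIF2α phosphorylation, separated the genotypes after injury. Its values were 13.4 and 12.1 in knockout injured, 16.9 and 18.2 in knockout naive, 26.3, 26.3 and 31.0 in wild-type injured and 19.3, 12.7 and 16.7 in wild-type naive libraries. The wild-type injured libraries lay above all others, and the knockout injured libraries lay below all wild-type injured ones and below both knockout naive ones. Knockout injured neurites averaged 12.8 ± 0.936 (SD, n = 2) and wild-type injured neurites 27.9 ± 2.73 (SD, n = 3), which is −1.07 ± 0.33 (SE) as a log2 fold change (limma, adjusted p = 0.299). With injury the difference was −0.43 ± 0.37 in the knockout (limma, adjusted p = 0.977) and 0.76 ± 0.30 in wild type (limma, adjusted p = 0.284). The interaction of −1.19 ± 0.47 had the smallest unadjusted p of the 35 (0.0263) and an adjusted p of 0.791 in limma. About 4.11% of its exon bases are shared with Il4i1 on the opposite strand.

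The other 3 transcription factors varied within groups. Xbp1, whose mRNA is spliced by IRE1, had values of 47.6 and 73.1 in knockout injured, 60.6 and 59.0 in knockout naive, 44.8, 61.9 and 45.3 in wild-type injured and 52.1, 32.5 and 55.8 in wild-type naive libraries. Knockout naive libraries lay above all wild-type naive ones, with a difference of 0.38 ± 0.30 (limma, adjusted p = 1) that was 0.15 without wild-type naive library 2, and gene-level values do not separate its spliced from its unspliced form. Ddit3, which encodes the pro-apoptotic factor CHOP, had values of 14.9 and 53.3 in knockout injured, 32.3 and 38.7 in knockout naive, 85.8, 27.7 and 73.7 in wild-type injured and 40.7, 31.8 and 49.5 in wild-type naive libraries. The injured libraries of Ddit3 spread on both sides of the naive ones in each genotype. About 4.73% of the Ddit3 exon bases are shared with Gm4189 and Mars on the opposite strand. Nupr1, a small stress-induced chromatin protein, ranged from 0 to 12.6 and was listed at 0 in knockout injured library 1 and wild-type injured library 3.

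Ddit4, known as REDD1, an inhibitor of the growth kinase complex mTORC1 (ENSMUSG00000020108, chr10:59949669-59951834), came closest to passing of all 35. Its values were 24.0 and 47.4 in knockout injured, 21.7 and 20.9 in knockout naive, 58.6, 51.7 and 69.2 in wild-type injured and 23.2, 18.1 and 27.8 in wild-type naive libraries. In wild type the injured values lay far above the naive ones, and in the knockout both injured values lay above both naive ones, but 1 of them only narrowly. Wild-type neurites averaged 59.8 ± 8.82 when injured and 23.0 ± 4.84 when naive (SD, n = 3 each), which is 1.35 ± 0.30 (SE) as a log2 fold change (limma, adjusted p = 0.0553). This stayed short of the threshold in 16 of 19 alternative settings, with an adjusted p of up to 0.218 in limma. It passed with a minimum value of 5 in the filter on low values (limma, adjusted p = 0.0428). The other settings that passed left out a knockout injured library, which left 1 in that group. Over the 19 settings the log2 fold change ran from 1.19 to 1.49. The injury difference in the knockout was 0.64 ± 0.37 (limma, adjusted p = 0.933), and it was 1.12 without knockout injured library 1 and 0.17 without knockout injured library 2. Knockout against wild-type injured neurites differed by −0.80 ± 0.34 (limma, adjusted p = 0.429), and the interaction was −0.71 ± 0.47 (limma, adjusted p = 0.828).

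Ppp1r15a, known as GADD34, directs a phosphatase to eIF2α and so ends the response (ENSMUSG00000040435, chr7:45522916-45526268). Its values were 12.8 and 67.2 in knockout injured, 21.03 and 4.08 in knockout naive, 68.9, 34.1 and 84.1 in wild-type injured and 18.5, 1.98 and 11.1 in wild-type naive libraries. The wild-type groups did not overlap, whereas knockout injured library 1 lay between the knockout naive ones. The injury difference in wild type was 2.74 ± 0.76 (SE), the largest of the 35 in this comparison by log2 fold change (limma, adjusted p = 0.136). Wild-type neurites averaged 62.4 ± 25.6 when injured and 10.5 ± 8.27 when naive (SD, n = 3 each).

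Trib3, a pseudokinase that binds ATF4 and CHOP and restrains them (ENSMUSG00000032715, chr2:152337422-152344032), had low values that separated the genotypes. They were 0.928 and 0 in knockout injured, 1.45 and 1.68 in knockout naive, 4.81, 3.39 and 6.42 in wild-type injured and 2.73, 3.45 and 5.35 in wild-type naive libraries. Every knockout value lay below every wild-type value, in injured and in naive neurites alike. The log2 fold change was −2.05 ± 0.61 in injured (limma, adjusted p = 0.268) and −0.88 ± 0.61 in naive neurites (limma, adjusted p = 1). Over the alternative settings the injured difference ran from −3.91 to −0.85.

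Chac1, a late ATF4 target that degrades glutathione, had values of 41.1 and 22.9 in knockout injured, 59.5 and 45.7 in knockout naive, 24.5, 39.5 and 26.4 in wild-type injured and 34.1, 51.9 and 54.9 in wild-type naive libraries. The knockout groups did not overlap, with injured values below naive ones, while the wild-type groups overlapped. The injury difference was −0.74 ± 0.38 in the knockout (limma, adjusted p = 0.919) and −0.62 ± 0.31 in wild type (limma, adjusted p = 0.393). In the knockout it was −1.15 without injured library 1 and −0.34 without injured library 2. Between knockout and wild-type injured neurites Chac1 was level, at 0.06 ± 0.35 (limma, adjusted p = 0.978). Sesn2, a leucine sensor that restrains mTORC1, had values between 21.1 and 47.4 in all 10 libraries, with the highest in wild-type injured library 2.

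**Figure D5:**
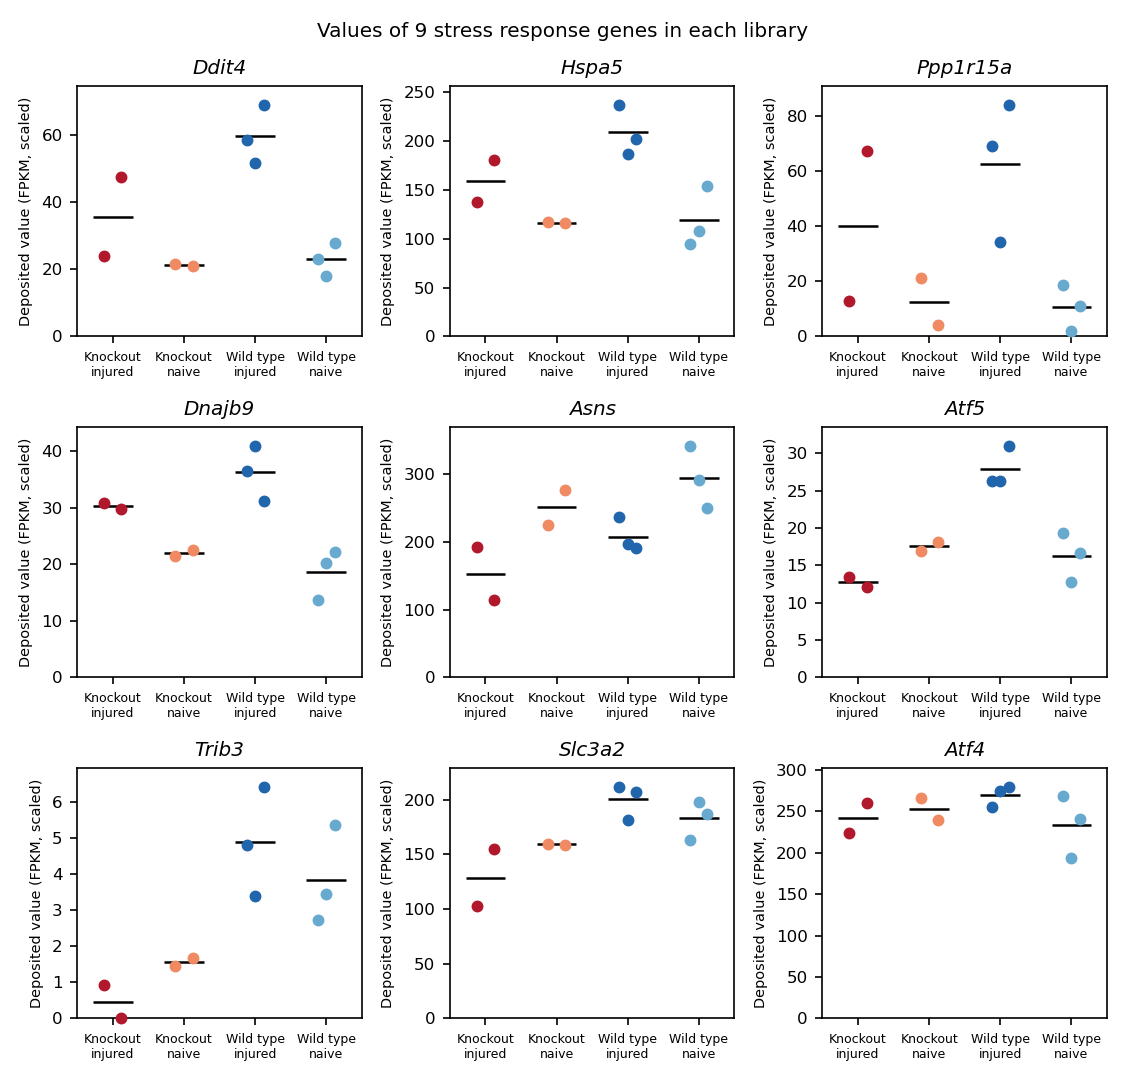
Deposited values of 9 of the genes in each library (points) with group means (lines), in the order knockout injured, knockout naive, wild-type injured, wild-type naive. Wild-type injured values of Ddit4 (51.7 to 69.2) lay above all other libraries, Trib3 was lower in each knockout library than in any wild-type library, and Atf4 stayed between 194 and 280.

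The amino acid and one-carbon genes are the metabolic output of ATF4. All 8 had a log2 fold change below 0 between knockout and wild-type injured neurites, where 45.7% of all tested genes lay above 0, with a median of −0.57 against −0.049 for all genes. Of these, Shmt2 (−0.02 ± 0.27, SE) and Mthfd2 (−0.04 ± 0.34) were nearly level, and Slc7a11 differed by −0.23 ± 0.62. Of the 8, Slc3a2, Phgdh, Psat1 and Slc7a5 (4 genes) were lower at an unadjusted p under 0.05, against 5.95% of all tested genes. Summed values of the 8 genes were 658 and 587 in knockout injured, 801 and 774 in knockout naive, 951, 828 and 983 in wild-type injured and 915, 926 and 786 in wild-type naive libraries. Both knockout injured sums lay below all other libraries. No single gene passed after adjustment.

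Slc3a2 and Slc7a5 encode the heavy and light chains of the large neutral amino acid transporter. Slc3a2 (ENSMUSG00000010095, chr19:8706882-8723369) had values of 102 and 155 in knockout injured, 160 and 159 in knockout naive, 212, 182 and 208 in wild-type injured and 163, 198 and 187 in wild-type naive libraries. Slc7a5 had values of 23.0 and 21.7 in knockout injured, 39.6 and 34.8 in knockout naive, 45.0, 40.7 and 30.1 in wild-type injured and 41.5, 42.1 and 38.3 in wild-type naive libraries. For both genes the knockout injured values lay below those of every other library. Between knockout and wild-type injured neurites Slc3a2 differed by −0.66 ± 0.21 (SE; limma, adjusted p = 0.299) and Slc7a5 by −0.75 ± 0.28 (limma, adjusted p = 0.362). Without knockout injured library 1 the Slc3a2 difference was −0.37. With injury in the knockout Slc7a5 differed by −0.71 ± 0.30 (limma, adjusted p = 0.829), against −0.09 ± 0.25 in wild type (limma, adjusted p = 0.913).

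Phgdh and Psat1 catalyse successive steps of serine synthesis. Phgdh had values of 136 and 119 in knockout injured, 128 and 113 in knockout naive, 197, 175 and 255 in wild-type injured and 145, 146 and 105 in wild-type naive libraries. Psat1 had values of 98.7 and 83.9 in knockout injured, 129 and 102 in knockout naive, 153, 113 and 221 in wild-type injured and 115, 131 and 104 in wild-type naive libraries. Wild-type injured values of Phgdh lay above all other libraries, and those of Psat1 lay above both knockout injured ones. The difference between knockout and wild-type injured neurites was −0.69 ± 0.23 for Phgdh (SE; limma, adjusted p = 0.313) and −0.77 ± 0.27 for Psat1 (limma, adjusted p = 0.336). The interaction was −0.58 ± 0.32 for Phgdh (limma, adjusted p = 0.807) and −0.75 ± 0.38 for Psat1 (limma, adjusted p = 0.804). Phgdh has 8 near-identical copies annotated as genes of their own. None of the copies was among the genes that passed the filter on low values, and whether reads of Phgdh were split among them was not tested.

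Asns, which makes asparagine and is a classical ATF4 target (ENSMUSG00000029752, chr6:7675169-7693254), had lower values after injury in both genotypes. They were 192 and 114 in knockout injured, 226 and 277 in knockout naive, 236, 197 and 190 in wild-type injured and 343, 291 and 250 in wild-type naive libraries. Injured values lay below all naive values of the same genotype. The difference was −0.75 ± 0.26 in the knockout (SE; limma, adjusted p = 0.719) and −0.50 ± 0.21 in wild type (limma, adjusted p = 0.325). In the knockout it was −1.13 without injured library 1 and −0.38 without injured library 2.

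The mitochondrial folate enzymes overlapped between groups. Shmt2 had values of 40.3 and 54.7 in knockout injured, 53.5 and 39.3 in knockout naive, 55.5, 45.8 and 42.7 in wild-type injured and 61.2, 55.7 and 49.4 in wild-type naive libraries, and its groups overlapped in every pair. Between knockout and wild-type naive neurites it differed by −0.26 ± 0.27 (limma, adjusted p = 1), and by −0.48 without knockout naive library 1 and −0.045 without knockout naive library 2. Mthfd2 ranged from 33.7 to 70.8 with log2 fold changes between −0.13 and 0.06 in the 4 pairwise comparisons. The cystine importer Slc7a11 ranged from 0.856 to 4.56.

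Among the 12 ER folding factors, Hspa5, the chaperone BiP (ENSMUSG00000026864, chr2:34771970-34777547), had the smallest p. Its values were 138 and 180 in knockout injured, 117 and 116 in knockout naive, 238, 187 and 203 in wild-type injured and 94.6, 108 and 155 in wild-type naive libraries. Injured values lay above all naive values of the same genotype. Wild-type neurites averaged 209 ± 26.0 when injured and 119 ± 31.5 when naive (SD, n = 3 each), which is 0.83 ± 0.21 (SE) as a log2 fold change (limma, adjusted p = 0.0956). In the knockout the difference was 0.43 ± 0.26 (limma, adjusted p = 0.933), and the interaction of −0.40 ± 0.33 did not pass (limma, adjusted p = 0.858). The BiP cofactor Dnajb9 had values of 30.8 and 29.8 in knockout injured, 21.5 and 22.5 in knockout naive, 36.6, 41.0 and 31.2 in wild-type injured and 13.7, 20.1 and 22.2 in wild-type naive libraries. Its groups did not overlap in either genotype, and the injury difference was 0.44 ± 0.34 in the knockout (limma, adjusted p = 0.975) and 0.94 ± 0.28 in wild type (limma, adjusted p = 0.167).

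Several other folding genes had smaller differences. The lectin chaperones Calr and Canx, the disulfide isomerase Pdia6 and the ER form of HSP90, Hsp90b1, had injury differences between −0.31 and 0.13 in the knockout and between −0.03 and 0.13 in wild type. Canx had values of 77.8 and 75.1 in knockout injured, 91.6 and 98.5 in knockout naive, 72.8, 82.0 and 65.0 in wild-type injured and 64.1, 88.5 and 72.8 in wild-type naive libraries. The knockout naive values of Canx lay above all others, with a difference from wild-type naive neurites of 0.35 ± 0.22 (SE; limma, adjusted p = 1). Hsp90b1 shares 13.6% of its exon bases with 1810014B01Rik and Gm25745.

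Manf, a secreted ER stress protein, and Hyou1, an ER exchange factor of the HSP70 family, lay the other way. Manf had values of 94.8 and 157 in knockout injured, 94.6 and 99.6 in knockout naive, 108, 72.1 and 69.5 in wild-type injured and 96.6, 74.4 and 136 in wild-type naive libraries. Hyou1 had values of 6.59 and 11.5 in knockout injured, 2.28 and 5.31 in knockout naive, 0.683, 2.66 and 7.33 in wild-type injured and 6.72, 5.96 and 2.06 in wild-type naive libraries. Knockout and wild-type injured libraries overlapped for both genes. The difference between them was 0.58 ± 0.30 for Manf (SE; limma, adjusted p = 0.54) and 1.39 ± 0.75 for Hyou1 (limma, adjusted p = 0.552). The interaction was 0.61 ± 0.43 for Manf (limma, adjusted p = 0.832) and 1.65 ± 1.05 for Hyou1 (limma, adjusted p = 0.824). Without knockout injured libraries 1 and 2 in turn, the injured genotype difference of Manf was 0.94 and 0.22 and its interaction 0.97 and 0.25, and that interaction was 0.38 without wild-type naive library 3. For Hyou1 the difference was 0.82 and the interaction 1.083 without wild-type injured library 1. About 9.25% of the Manf exon bases are shared with other tested genes, Dcaf1 and Rbm15b among them.

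Sdf2l1, an ER protein that works with BiP and its cochaperones, had values of 2.40 and 9.87 in knockout injured, 12.9 and 4.61 in knockout naive, 13.3, 3.52 and 6.22 in wild-type injured and 0, 5.50 and 1.71 in wild-type naive libraries. The groups overlapped in every pair, and the difference between knockout and wild-type naive neurites was 1.76 ± 0.86 (SE; limma, adjusted p = 1), or 1.11 without knockout naive library 1 and 1.07 without wild-type naive library 1. Creld2 ranged from 13.4 to 41.4, Pdia4 from 14.8 to 39.0 and the cochaperone Dnajc3 from 2.73 to 13.8.

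Of the 2 ERAD genes, Herpud1, a scaffold of the degradation complex, had values of 47.3 and 64.8 in knockout injured, 73.9 and 53.9 in knockout naive, 109, 113 and 62.1 in wild-type injured and 51.0, 90.3 and 76.6 in wild-type naive libraries. Wild-type injured library 3 lay below knockout injured library 2, so the injured groups overlapped. The difference between knockout and wild-type injured neurites was −0.72 ± 0.33 (SE; limma, adjusted p = 0.47). Edem1, which passes glycoproteins to degradation, ranged from 2.85 to 8.97, and in wild type all injured values lay above all naive ones.

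The differences of the genes with a promoter element shown above are given as a description with no test. With injury in the knockout the 6 genes with an ATF4 element had a median log2 fold change of −0.75, with 0 of 6 above 0 (42.0% of all tested genes). In wild type their median was 0.018, with 3 of 6 above 0 (50.6%). Of the 6, Nupr1, Trib3 and Slc7a11 had low values, with medians of 3.27, 3.06 and 3.01 over the 10 libraries. Without knockout injured library 2 the injury differences in the knockout were −0.34 for Chac1 and −0.38 for Asns. Between knockout and wild-type injured neurites the median of the 6 was −0.36, with 2 of 6 above 0 (45.7% of all tested genes). The 7 genes with ERSE had medians of −0.08 with injury in the knockout (2 of 7 above 0), 0.13 in wild type (6 of 7 above 0) and −0.08 between knockout and wild-type injured neurites (2 of 7 above 0). The shares of all tested genes above 0 are the same 42.0%, 50.6% and 45.7%.

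Other genes of the pathways, taken from lists drawn up by role, were read alongside. Of 32 tested genes of the integrated stress response outside the 35, 1 rose with injury in wild type and 0 fell, where 0.948% of all tested genes were called. It was Atf3, an injury-induced transcription factor downstream of ATF4, with values of 13.0 and 7.21 in knockout injured, 0 and 0 in knockout naive, 12.1, 16.47 and 33.2 in wild-type injured and 2.89, 0 and 0 in wild-type naive libraries. Its log2 fold change was 3.66 ± 0.65 in wild type (SE; limma, adjusted p = 0.0225). In the knockout both injured values lay above naive libraries that were both listed at 0, so no fold is given (limma, adjusted p = 0.336), and the interaction did not pass (limma, adjusted p = 0.987). The glycine transporter Slc6a9 differed by −2.45 ± 0.54 with injury in wild type (limma, adjusted p = 0.0553).

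In the other comparisons 0 of these 32 genes passed in either direction. The smallest p between knockout and wild-type injured neurites belonged to Stc2, a secreted glycoprotein, with values of 0.640 and 0.147 in knockout injured and 4.66, 7.97 and 5.90 in wild-type injured libraries. Its difference was −2.36 ± 0.57 (limma, adjusted p = 0.168), and that of Eif2b2, a subunit of the exchange factor for eIF2, was 1.32 ± 0.36 (limma, adjusted p = 0.216). With injury in the knockout Cebpg, a partner of ATF4, differed by −1.23 ± 0.45 (limma, adjusted p = 0.754). Between knockout and wild-type naive neurites the smallest p values were those of the transporters Slc1a5, at −2.23 ± 0.68 (limma, adjusted p = 0.987), and Slc7a1, at −1.06 ± 0.48 (limma, adjusted p = 1). In the interaction they were those of Eif2b2, at 1.63 ± 0.51, and Slc6a9, at 2.36 ± 0.85 (limma, adjusted p = 0.791 each).

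Of 48 tested genes of ER folding, translocation and degradation outside the 35, 0 passed in any of the 5 comparisons. Sec61b, a subunit of the ER translocation channel, came closest, with values of 320 and 240 in knockout injured, 271 and 249 in knockout naive, 303, 279 and 326 in wild-type injured and 163, 199 and 169 in wild-type naive libraries. With injury in wild type it differed by 0.77 ± 0.17 (SE; limma, adjusted p = 0.0514), and the isomerase P4hb by 0.74 ± 0.23 (limma, adjusted p = 0.190). Bcap31, an ER membrane protein of sorting and export, differed by −1.04 ± 0.30 with injury in the knockout (limma, adjusted p = 0.562), and its interaction was −1.35 ± 0.39 (limma, adjusted p = 0.764). Of 18 tested cytosolic aminoacyl-tRNA synthetases, many of them ATF4 targets, 0 passed in any comparison, and their medians lay between −0.20 and 0.05. Between knockout and wild-type injured neurites 10 of these 18 synthetases lay above 0 (45.7% of all tested genes), with a median of 0.04. The 2 smallest unadjusted p values over the 5 comparisons were those of Yars, at −0.49 ± 0.22 with injury in the knockout (limma, adjusted p = 0.861) and at −0.43 ± 0.20 between knockout and wild-type injured neurites (limma, adjusted p = 0.481).

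Several markers of cell makeup also differed between the groups. The summed value of 12 astrocyte markers, of which 9 to 12 were above 0 in a library and S100b and Gjb6 were at 0 in several, was 735 and 832 in knockout injured, 579 and 502 in knockout naive, 738, 647 and 1487 in wild-type injured and 403, 419 and 553 in wild-type naive libraries. The summed value of 9 interneuron markers, all above 0 in 8 of the 10 libraries, was 63.8 and 113 in knockout injured, 488 and 855 in knockout naive, 74.3, 90.2 and 56.9 in wild-type injured and 449, 563 and 709 in wild-type naive libraries. With injury limma called 1 of the 9 lower in the knockout (0.0573% of all tested genes were called) and 5 lower in wild type (0.948%). The summed value of 6 nuclear-retained RNAs, led by Malat1, was 1824 and 2973 in knockout injured, 2341 and 3222 in knockout naive, 7328, 6707 and 6095 in wild-type injured and 3551, 4198 and 2775 in wild-type naive libraries. Malat1 made up most of each sum, so the sum does not stand for the 6 together. With injury in wild type 2 of the 6 had a log2 fold change above 0 (50.6% of all tested genes), with a median of −0.32. Limma also called the astrocyte marker Sox9, the progenitor marker Vim and Malat1 higher with injury in wild type (adjusted p = 0.0141, 0.0435 and 0.0455), and Malat1 lower in knockout than in wild-type injured neurites (adjusted p = 0.02). In that wild-type comparison 10 of 11 tested astrocyte markers lay above 0. Of 6 tested radial glia and progenitor markers 4 lay above 0, and Vim was the only 1 of them called. The part of all these markers in the differences above was not tested, and in bulk samples fewer cells of a type and less RNA per cell cannot be told apart. Of 8 microglial markers 0 to 5 were above 0 in a library, with sums of 0.288 and 7.58 in knockout injured, 2.80 and 18.4 in knockout naive, 5.64, 1.61 and 0.493 in wild-type injured and 0, 3.70 and 0 in wild-type naive libraries. Cx3cr1 and Tmem119 were listed at 0 in every library, and C1qb reached 11.3 in knockout naive library 2.

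The precision behind these statements differed by comparison. The 95% interval of the log2 fold change lay wholly within 1 of 0 for 13 of the 35 genes with injury in the knockout, 14 with injury in wild type, 20 between naive genotypes, 12 between injured genotypes and 6 in the interaction. For the other genes the interval reached a change of that size in at least 1 direction.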

How the data were processed

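RNA-seq libraries were made by Smart-seq2 from poly(A) RNA of neurites, per the labels' protocols, with 1 ng of RNA, 14 cycles of cDNA amplification, 500 pg of cDNA tagmented and 11 further cycles. Such libraries do not record strand. The submitters' processing notes name STAR 2.4.2a, RSEM 1.2.21 and mm10. The deposited values were taken as FPKM made by the authors and then multiplied by a constant per library (0.616 to 1.11). This reading comes from the values alone: per library at least 99.9978% of them were, to 0.001, whole multiples of that constant times 0.01. Depth was estimated from the steps of values times effective length in genes with 1 transcript and is fixed only up to a whole-number factor. No counts were used, and therefore no counting intervals can be shown.

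GENCODE release M21 named 44548 of the IDs and left 647 unnamed. Limma 3.58.1 (R 4.3.3) was fitted to log2(value + 1) with a mean-variance trend and 4 group means over all 10 libraries, for 15712 genes at 1 or more in 2 or more libraries, with 6 residual degrees of freedom. Benjamini-Hochberg adjustment ran over all tested genes within a comparison at a threshold of 0.05. Fold changes are on the log2(value + 1) scale and understate changes of low genes. The fit was tested on simulated data with planted changes. Alternatives were the pseudocount, the filter, the scaling, the trend, the replicate number as a block, only the groups compared, and leaving out each library. Leaving out 3 libraries that stand apart was added after the values were seen. Near-identical copies were sought with blastn 2.17.0 at 95% identity. Promoter sequences are RefSeq's.

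The 35 genes and all lists were chosen with earlier results of these data known. Values in every library are given for the 3 genes with the smallest p in each direction of each comparison, for any that passed, and for 4 further genes picked after their values were seen (Atf4, Ddit3, Dnajb9, Herpud1). Of the other pathway lists, those that passed are named. The 2 with the smallest p in each comparison are named for the integrated stress response, and for the other lists only some of them are.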

Additional observations from a re-analysis of the deposited data

How the results depend on the processing

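No fold change of the 30 gene results singled out by smallest p changed sign. None of the 30 passed in the main fit, so keeping their side of the threshold means only that they still did not pass. That held for 558 of 561 values under alternatives, and the other 3, all for Ddit4 with injury in wild type, passed it. Leaving out 1 library moved several fold changes by over 1.5 times, as given beside them. For injury in wild type, where 149 genes passed in all, 25 passed with no filter, 77 with no mean-variance trend and 90 with only the groups compared; 1 of the 35 passed with a minimum value of 5, and the median of the 35 was 0.13 under quantile normalization. Of the calls in that comparison 110 of 149 were higher, against 100 of 164 under quantile normalization. For injury in the knockout, where 9 passed, the count was 1 with a pseudocount of 0.1, 33 with no filter, 4 under quantile normalization, 1 with no trend, 5 with the replicate block and 0 with only the groups compared. Between naive genotypes 52 passed with no filter, and the median of the 35 was −0.10 under quantile normalization. In the interaction 13 passed with no filter and 3 with no trend, and the median of the 35 was −0.22 under quantile normalization and −0.23 under median-ratio scaling. The cause of these shifts was not tested.

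Leaving out 1 library at a time, genes called numbered 35 to 311 for injury in wild type (members 0 to 1), 0 to 20 for injury in the knockout, 24 to 57 between injured genotypes and 0 to 2 in the interaction. The median of the 35 then ranged from 0.14 to 0.24 for injury in wild type, −0.26 to 0.075 for injury in the knockout, −0.032 to 0.15 between naive genotypes, −0.40 to −0.074 between injured genotypes and −0.48 to −0.20 in the interaction. Where a group was left with 1 library, it was assumed to vary like the others. Without the 3 libraries that stand apart, 1 at a time, 7 to 9 of the 35 had an unadjusted p under 0.05 for injury in wild type, 3 to 4 for injury in the knockout, 0 to 1 between naive genotypes, 6 to 8 between injured genotypes and 0 to 3 in the interaction.

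Same-numbered libraries did not deviate together (correlations of −0.048 to 0.031), so the numbers were not taken to pair samples; the replicate block changed no call of the 35. Depth is known only by estimate, and its part in the spread was not tested.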
